A study of Mus musculus with 2 samples.

Results

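Arg1, Retnla, Chil3, Mrc1 and Ear2 are 5 of the 20451 genes counted in single cells of the mouse thymus, and they were chosen by name as genes of alternatively activated myeloid cells. Each had a row in the deposited tables, and each was followed across cell clusters and between 2 genotypes. The first genotype was Mgl2DTR_eGFP (Mgl2DTR), in which, by its name, the lectin gene Mgl2 drives a receptor for diphtheria toxin together with eGFP. The second was wild type (WT). Mice of both genotypes were 7 weeks old, Mgl2DTR mice received 500 ng of diphtheria toxin with 48 h of exposure, and the labels do not say whether WT mice received toxin. Toxin kills cells that carry the receptor, so in this model the depleted cells are those in which Mgl2 is active, whatever their type. Thymus was digested with collagenase D, cells carrying the T-lineage antigen CD90.2 were depleted with magnetic beads, and the live cells were then sorted by CD11c and CD11b.

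Alternative activation is the state that macrophages and related cells enter when interleukin 4 or interleukin 13 binds a receptor built on the Il4ra chain and activates the transcription factor STAT6. Its best known transcripts in the mouse encode arginase, the chitinase-like protein Ym1, the resistin-like molecule FIZZ1 and the mannose receptor. In the thymus, macrophages take up dying thymocytes and dendritic cells present self antigens to developing T cells. Several of these genes are also used outside that state, Chil3 by neutrophils and their precursors among them.

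Both genotypes shared 1 droplet pool, told apart by antibody hashtags, and no animals were named, so each genotype counts as 1 sample without a replicate. A single genotype hashtag marked 7433 Mgl2DTR cells (71521759 UMIs, median 6930 per cell) and 11586 WT cells (116719748 UMIs, median 7820 per cell). No test between genotypes was possible. Levels are CPM, the UMIs of a gene in the summed cells scaled to a common total, with exact Poisson intervals, ratios are Mgl2DTR over WT with exact 95% intervals, and both cover counting error only. Calls rest on size alone: higher means a ratio of 1.5 or more, lower the same in the other direction, and in both cases the interval must not reach 1. Cells were clustered without the 5 genes, their copies, Mgl2 and other listed alternative activation genes, and clusters were given "-like" names from fixed markers. Mgl2 itself stood at 17.9 CPM in Mgl2DTR cells, against 109 CPM in WT cells. The cDC2-like clusters (type 2 conventional dendritic cells, which carry Mgl2) made up 3.16% of Mgl2DTR cells and 8.75% of WT cells, while neutrophil-like clusters made up 10.2% and 2.44%, and T cell-like clusters 6.57% and 18.9%. Cells that lie among droplets with a pair of hashtags were called doublets: 9.54% of Mgl2DTR cells and 10.4% of WT cells. Of 9829 such pairs, 5074 include the third hashtag of the pool, which no cell here carried alone, so a pair with it need not mean 2 cells. The call was therefore also made without third-hashtag cells, which left 7238 Mgl2DTR cells and 11311 WT cells uncalled, and the values differ much in cluster 25.

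The 5 genes lie on separate chromosomes of the mouse build GRCm38, in the GENCODE M21 annotation. Arg1, for arginase 1, which splits arginine into ornithine and urea, spans chr10:24915221-24927484 on the minus strand with 8 exons. Retnla, for a secreted resistin-like molecule, spans chr16:48842551-48844461 on the plus strand with 4 exons. Chil3, for the chitinase-like protein Ym1, spans chr3:106147554-106167564 on the minus strand with 11 exons. Mrc1, for the mannose receptor CD206, spans chr2:14229392-14332057 on the plus strand with 30 exons. Ear2, for an eosinophil-associated ribonuclease, spans chr14:44102654-44103534 on the plus strand with 2 exons. Ear2 has near-identical neighbours: of the 50-base words in the last 500 bases of its transcripts, where the 3′ libraries are read, 38.1% also occur anywhere in transcripts of Ear1, Ear6, Ear10 or 2 Ear pseudogenes. For Chil3 that share was 15.4%, through Chil4 and Gm6522, and for Arg1, Retnla and Mrc1 it was 0. The sources used here do not say how reads from the shared stretches were counted, so part of the Ear2 and Chil3 counts is uncertain. The listed copies themselves held few UMIs: Ear1 had 0 UMIs in Mgl2DTR cells and 4 in WT cells, Ear6 had 21 and 9, and Chil4 had 1 and 5.

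Because STAT6 is the factor through which interleukin 4 acts, the 250 bases before each start in RefSeq (build GRCm38.p6) were searched on both strands for the STAT6 palindrome, which is TTC and GAA with 4 bases between, for TTNNGCAA, a C/EBP motif, and for GAGGAA, bound by PU.1. Entries for Retnla, Ear2, Chil3 and Mrc1 were matched, and Arg1 was not analysed here. The same 80 bases of each, starting 160 and ending 81 bases before the start and written 5′ to 3′ on the strand of the gene, are shown because they hold the matches to the STAT6 and C/EBP motifs, which are in capitals:
Retnla, chr16:48842449-48842528, plus strand: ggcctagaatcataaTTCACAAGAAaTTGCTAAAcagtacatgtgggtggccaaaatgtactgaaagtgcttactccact
Ear2, chr14:44102494-44102573, plus strand: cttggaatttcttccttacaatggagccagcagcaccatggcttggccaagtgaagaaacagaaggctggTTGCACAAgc
Chil3, chr3:106167645-106167724, minus strand: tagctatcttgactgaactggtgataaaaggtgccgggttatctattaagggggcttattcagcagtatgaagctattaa
Mrc1, chr2:14229254-14229333, plus strand: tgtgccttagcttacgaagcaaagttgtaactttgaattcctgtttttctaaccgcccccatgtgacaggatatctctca
Retnla held TTCACAAGAA at positions -145 to -136 and a reverse-strand C/EBP match at positions -134 to -127, separated by a single base. Ear2 held a reverse-strand C/EBP match at positions -90 to -83. GAGGAA matched outside the printed window, at 3 places in Mrc1 and 1 in Retnla, and Chil3 held no match to any of these motifs. Of 32851 stretches of that length, 5.85% held the STAT6 motif, 9.56% the C/EBP motif and 23.25% the PU.1 motif. A match is a description of the letters and not of binding.

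Over all cells the 5 genes went in different directions. Arg1 had 2807 UMIs in Mgl2DTR cells (39.2 CPM) and 100 UMIs in WT cells (0.857 CPM), a ratio of 45.8 (37.5 to 56.5), or 21.9 among cells with the surer hashtag calls. Chil3 had 18152 UMIs in Mgl2DTR cells (254 CPM) and 9869 UMIs in WT cells (84.6 CPM), a ratio of 3.002 (2.93 to 3.08). Both were called higher. Retnla had 328 UMIs in Mgl2DTR cells (4.59 CPM) and 4993 UMIs in WT cells (42.8 CPM), a ratio of 0.107 (0.0956 to 0.1199). Ear2 had 1622 UMIs in Mgl2DTR cells (22.7 CPM) and 5154 UMIs in WT cells (44.2 CPM), a ratio of 0.514 (0.485 to 0.543). Both were called lower. The Retnla ratio was 0.401 without called doublets (0.104 where third-hashtag cells played no part in the call) and 0.3398 without cluster 25, and still called lower in both. Mrc1 stood at 25.7 CPM in Mgl2DTR cells and 17.6 CPM in WT cells, and its ratio of 1.46 (1.37 to 1.55) was not called, but was called higher, at 2.03, without called doublets (1.48 and not called where third-hashtag cells played no part). So 4 of the 5 genes were called, where 11.9% of all 14097 genes measured over all cells were called either way.

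A few cells carried much of these totals. The 10 Mgl2DTR cells with most Arg1 held 32.5% of it and the 10 WT cells held 57.0%, and for Retnla these shares were 9.15% in Mgl2DTR cells and 67.5% in WT cells. The single highest cell had 10 Retnla UMIs in Mgl2DTR cells and 593 in WT cells. Chil3, with 11.96% of its Mgl2DTR UMIs and 18.3% of its WT UMIs in the 10 highest cells, and Ear2, with 9.001% and 10.7%, were spread over more cells. For Mrc1 the shares were 25.5% in Mgl2DTR cells and 11.6% in WT cells.

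The difference over all cells mixes how many cells of each cluster were present with the level inside each cluster, and the 2 parts were separated as arithmetic. With the levels held at those of WT and the cluster shares of Mgl2DTR put in, the ratio was 3.41 for Chil3, 1.88 for Mrc1, 1.08 for Ear2, 0.820 for Arg1 and 3.83 for Retnla. With the cluster shares held at those of WT and the levels of Mgl2DTR put in, it was 0.973 for Chil3, 0.952 for Mrc1, 0.437 for Ear2, 10.99 for Arg1 and 0.102 for Retnla. For Chil3 the shares alone gave about the whole ratio, and for Ear2 the levels alone did. For Arg1 neither part alone gave the 45.8 seen, since its level was high in a cluster that was also larger in Mgl2DTR. For Retnla and Arg1 both parts rest on cluster 25, whose cells were not alike in the 2 genotypes, so their split compares different cells.

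**Figure D1:**
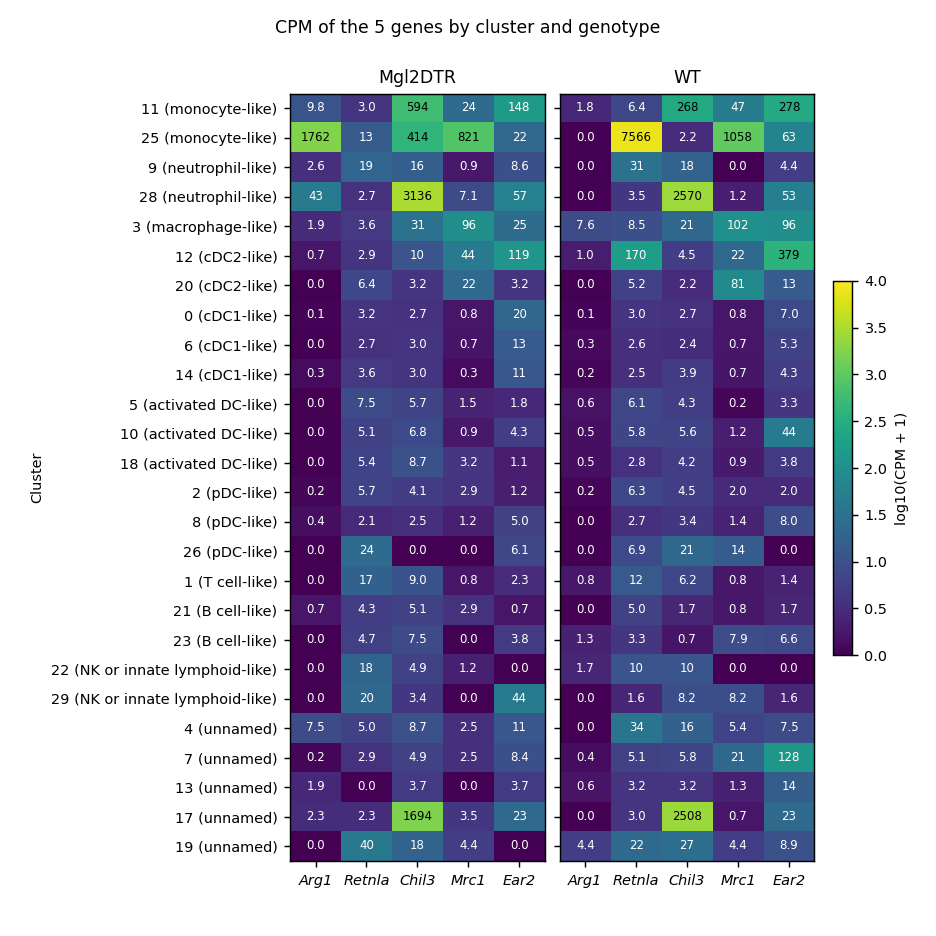
CPM of the 5 genes (columns) in each cluster with at least 50 cells of each genotype (rows), Mgl2DTR on the left and WT on the right, with the colour on a log10(CPM + 1) scale and the CPM printed in each box. Arg1 reached 1762 CPM in cluster 25 of Mgl2DTR, Retnla 7566 CPM in cluster 25 of WT, Chil3 its highest levels in clusters 28 and 17 of both genotypes, and Ear2 379 CPM in cluster 12 of WT.

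**Figure D2:**
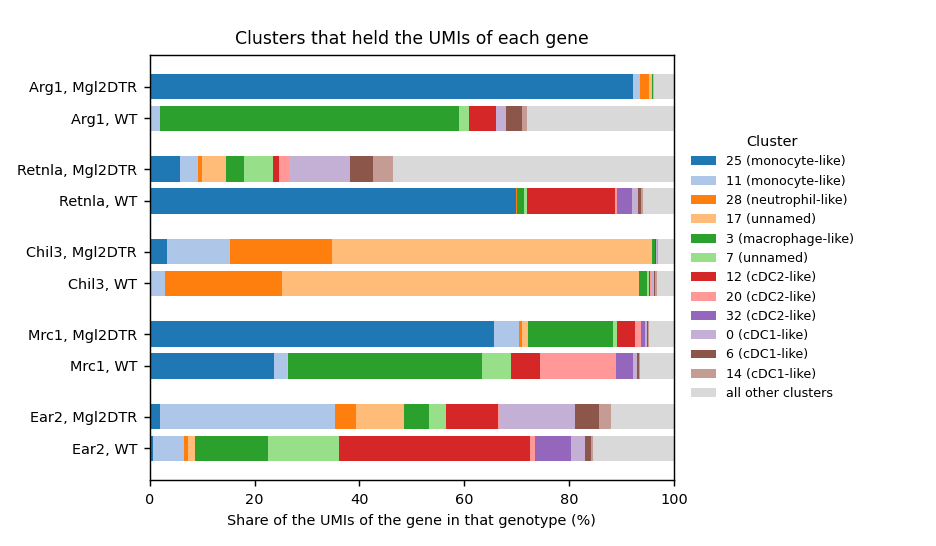
Share of each gene's UMIs (%, x axis) that lay in each of 12 clusters, with all other clusters in grey, for Mgl2DTR and WT in turn. Cluster 25 held 92.2% of Arg1 in Mgl2DTR cells and 69.8% of Retnla in WT cells, and cluster 17 held 61.0% of Chil3 in Mgl2DTR cells and 68.1% in WT cells.

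Where the transcripts lay differed from gene to gene. Cluster 25 held 92.2% of Arg1 UMIs in Mgl2DTR cells, whereas in WT cells 57.0% lay in cluster 3, which was macrophage-like by 10 of 12 markers, among them C1qa, Adgre1 and Mertk. Of Retnla, no cluster held more than 11.6% in Mgl2DTR cells, and in WT cells cluster 25 held 69.8% and the cDC2-like cluster 12 another 16.8%. Without called doublets cluster 25 held 11.2% of WT Retnla. Chil3 lay in cluster 17 (61.0% in Mgl2DTR cells, 68.1% in WT cells), the neutrophil-like cluster 28 (19.5% and 22.2%) and, in Mgl2DTR cells, the monocyte-like cluster 11 (11.98%). Mrc1 was divided between cluster 25 (65.7% in Mgl2DTR cells, 23.7% in WT cells) and cluster 3 (16.2% and 37.1%), with 14.5% in the cDC2-like cluster 20 of WT. Ear2 was spread differently in the 2 genotypes: cluster 11 held 33.4% of it in Mgl2DTR cells and 5.92% in WT cells, and cluster 12 held 9.99% and 36.3%.

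Per cluster, a gene was measured with at least 50 summed UMIs, which gave 35 combinations of a gene and a cluster in 26 clusters. Of these, 7 were called higher, 15 lower and 13 were not called. Over all genes, 4.58% of 159588 combinations were called higher and 4.1% lower. Retnla was lower in 3 of 7 clusters and higher in 0, Chil3 higher in 2 of 7 and lower in 0, Mrc1 higher in 1 of 6 and lower in 3, Ear2 higher in 3 of 13 and lower in 8, and Arg1 higher in 1 of 2 and lower in 1.

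**Figure D3:**
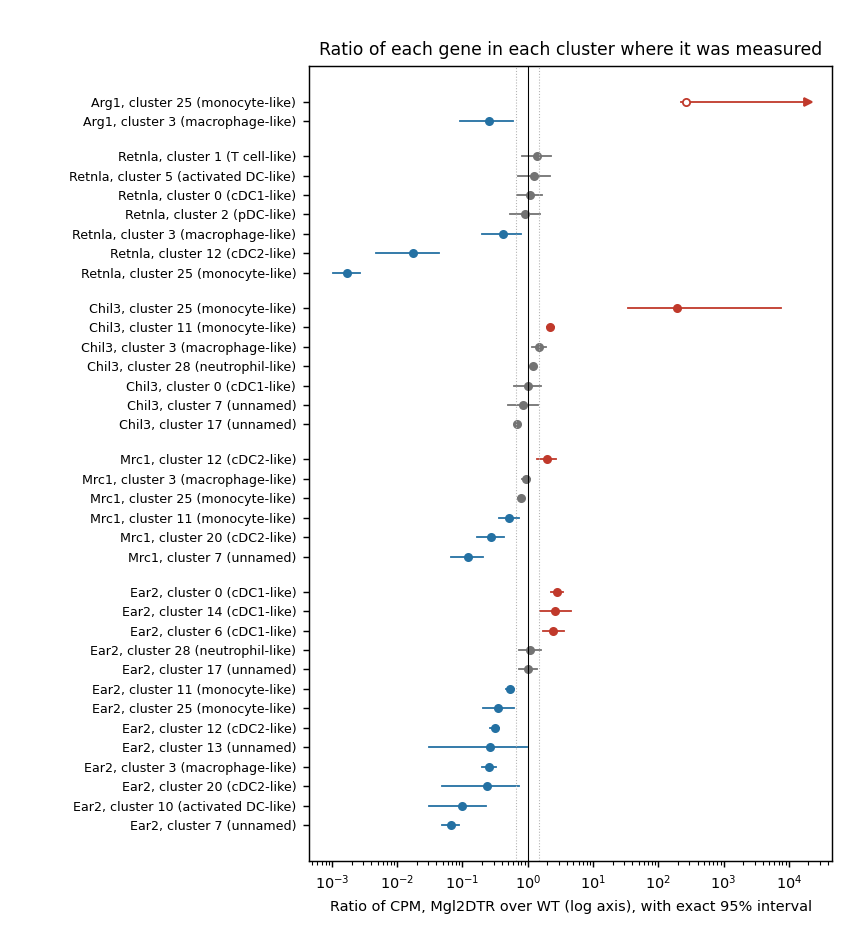
Ratio of CPM, Mgl2DTR over WT (log x axis), for each gene and cluster where it was measured, with points at the ratio and lines for the exact 95% interval (counting error). Red points were called higher, blue points lower and grey points were not called, dotted lines mark the size of the call, and the open point for Arg1 in cluster 25 is a lower bound against 3 UMIs.

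Cluster 25 held the sharpest contrast, and its cells were not alike in the 2 genotypes. It had 181 Mgl2DTR cells (2.44% of that genotype) and 52 WT cells (0.449%). Its name by the fixed rule was monocyte-like, and the Mgl2DTR cells fit it, with 11063 CPM over 10 monocyte markers and 2731 CPM over 12 macrophage markers. The WT cells went against it: 4790 CPM of monocyte markers, with 3 of 10 at 0, and 7375 CPM of macrophage markers. Called doublets made up 2.21% of the Mgl2DTR cells and 80.8% of the WT cells, but 0.552% and 1.92% where third-hashtag cells played no part in the call. Besides its cells with 1 hashtag, the cluster held 69 cells with the third and the Mgl2DTR hashtag, 56 with the third and the WT hashtag and 72 with both genotype hashtags. Whether the WT cells there are doublets cannot be told from these calls. The name also varied with the clustering. With coarser clustering, a cluster led by Pf4, Retnla and Arg1 (94 Mgl2DTR cells, 52 WT cells) was macrophage-like by 6 of 12 markers. With the 5 genes let into the clustering, a cluster led by Arg1, Pf4 and Ccl7 (192 and 52 cells) was monocyte-like by 8 of 10. How far these hold the same cells as cluster 25 was not tested. Cluster 25 is therefore called by its number here. Neutrophil markers summed to 7516 CPM in its Mgl2DTR cells and 984 CPM in its WT cells, and Mgl2 to 7.49 CPM and 1021 CPM. The part of doublets and of neutrophil RNA in the values below was not tested beyond the splits given.

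Arg1 was read in 123 of the 181 Mgl2DTR cells of cluster 25, with 2589 UMIs (1762 CPM, 1695 to 1831) and up to 124 UMIs in a cell, and in 0 of the 52 WT cells. Set against 3 UMIs in the WT cells of that cluster together, it was at least 270-fold higher. Retnla was the reverse, with 19 UMIs in 10 Mgl2DTR cells (12.9 CPM) and 3484 UMIs in 31 WT cells (7566 CPM), a ratio of 0.00171 (0.00103 to 0.00267). Arginase and the resistin-like molecule thus stood at opposite levels in cells that fell into 1 cluster without either gene being used. Chil3 had 609 UMIs in 81 Mgl2DTR cells (414 CPM) and 1 UMI in WT cells (2.17 CPM), a ratio of 191 with a wide interval of 34.1 to 7551, and at least 57.0-fold higher against 3 UMIs once the highest cell of each genotype, in WT the only one with a UMI, was left out. Mrc1 was high in both, with 1207 UMIs in 133 Mgl2DTR cells (821 CPM) and 487 UMIs in 51 WT cells (1058 CPM), and its ratio of 0.777 (0.699 to 0.865) was not called, but was called lower, at 0.519, with every cell weighted alike. Ear2 was low in both, at 22.5 CPM in Mgl2DTR cells and 63.0 CPM in WT cells. Its ratio of 0.357 (0.210 to 0.609) was called lower, but without the highest cell of each genotype it was 0.763 and not called. Of all 4672 genes measured in cluster 25, 35.3% were called either way, so a called gene is common there.

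Without called doublets, 177 Mgl2DTR cells and 10 WT cells of cluster 25 were left. Arg1 then stood at 1777 CPM in Mgl2DTR cells and at 0 UMIs in WT cells, where 3 UMIs would be 60.5 CPM. Retnla stood at 13.1 CPM in Mgl2DTR cells and 2643 CPM in WT cells, with the WT value from 131 UMIs in 6 cells. Mrc1 stood at 829 CPM in Mgl2DTR cells and 1089 CPM in WT cells. The directions of Arg1 and Retnla were the same in these few cells. With the call made without third-hashtag cells, 180 Mgl2DTR cells and 51 WT cells were left, with Arg1 at 1763.5 CPM and 0 UMIs and Retnla at 12.96 CPM and 7775 CPM.

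**Figure D4:**
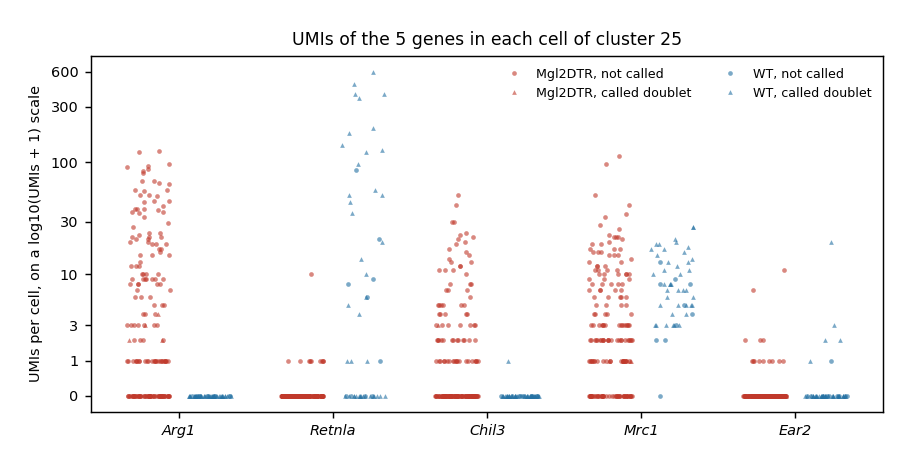
UMIs per cell (y axis, log10 of UMIs + 1) of each gene in the 181 Mgl2DTR cells (red) and 52 WT cells (blue) of cluster 25, with triangles for called doublets. Arg1 reached 124 UMIs in an Mgl2DTR cell and was at 0 in each WT cell, while Retnla reached 10 UMIs in Mgl2DTR cells and 593 UMIs in WT cells.

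Gene lists around the 5 genes also split cluster 25, where 1013 of all 4672 measured genes were higher and 637 lower. Of 12 measured hypoxia and glycolysis genes, 10 were higher in Mgl2DTR cells and 0 lower, with a median log2 ratio of 1.71 against 0.16 for all genes measured there. Hif1a, the hypoxia-inducible transcription factor, stood at 487 CPM in Mgl2DTR cells and 84.7 CPM in WT cells, Slc2a1, a glucose transporter, at 53.8 and 8.69 CPM, and Pkm, pyruvate kinase, at 598 and 130.3 CPM. Of 17 genes of tissue-resident macrophages, 1 was higher and 14 were lower in Mgl2DTR cells, with a median log2 ratio of -1.86, or -1.39 without the 3 genes that had 0 UMIs in Mgl2DTR cells. Apoe, a lipid carrier, stood at 474 CPM in Mgl2DTR cells and 7570 CPM in WT cells, and Folr2, a folate receptor of resident macrophages, at 85.8 and 729.6 CPM. Timd4, Cd209f and Cd209g had 0 UMIs in Mgl2DTR cells, against 55, 112 and 54 in WT cells.

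Of 12 other alternative activation genes measured in cluster 25, 4 were higher and 5 lower. The higher ones were the chemokine Ccl24 (1731 CPM in Mgl2DTR cells, 445 CPM in WT cells), Fn1, for fibronectin (1475 UMIs and 0), Tgm2, for a transglutaminase (144 UMIs and 2), and the growth factor Hbegf (57 UMIs and 3). The lower ones were Mgl2, its neighbour Clec10a (36.1 CPM and 349.6 CPM), Cd209d, the scavenger receptor Cd36 and the integrin Itgax. The list was thus divided as the 5 genes were. In the chain from the receptor to transcription, Il4ra (237 CPM in Mgl2DTR cells, 54.3 CPM in WT cells), Cebpb (981 and 86.9 CPM) and the demethylase Kdm6b (157 and 91.2 CPM) were higher, Klf4 was lower (225 and 343 CPM), and 7 others of 11 were not called, among them Stat6 at 68.7 and 67.3 CPM. With 35.3% of all genes of the cluster called either way, the counts of this receptor chain are near that share. Of 11 genes of arginine and polyamine metabolism, Odc1, Srm and Azin1 were higher and Ass1, Sms and Oat lower. Of 10 genes of classical activation 4 were higher, including Il1b (661 and 189 CPM), and 4 lower, including the interferon-induced chemokine Cxcl9 (22.5 and 165 CPM).

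Within the Mgl2DTR cells of cluster 25, Arg1 and Chil3 leaned to different cells. After each cell was thinned to 2000 UMIs, 82 cells carried Arg1 and 75 did not. The cells with Arg1 had 178 CPM of Chil3, against 604 CPM in those without. They also had more Fn1 (1518 and 588 CPM), more of the platelet factor Pf4 (3349 and 1682 CPM), more hypoxia and glycolysis RNA (4131 and 2951 CPM over 16 genes) and less of the neutrophil markers (4448 and 10215 CPM). Mrc1 stood at 905 and 749 CPM. The median depth was 6719 UMIs in cells with Arg1 and 9576 in those without, and the part of depth was not tested. These are sums over cells of 1 sample, given as a description.

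Outside cluster 25, Arg1 was nearly confined to small numbers of cells. In macrophage-like cluster 3 it had 6 UMIs in 4 Mgl2DTR cells (1.95 CPM) and 57 UMIs in 11 WT cells (7.60 CPM), a ratio of 0.256 (0.0902 to 0.592), the opposite direction to cluster 25. With every cell weighted alike it was 0.0848. In monocyte-like cluster 11 it had 36 UMIs in 14 Mgl2DTR cells and 2 UMIs in WT cells. In neutrophil-like cluster 28 there were 49 UMIs in a single Mgl2DTR cell and 0 in WT. Unnamed clusters together held 117 Arg1 UMIs among 1313 Mgl2DTR cells and 9 among 1757 WT cells. Of the 117, 15 lay in 2 cells of cluster 17. Without cluster 25 the ratio over all cells was 3.62 and still called higher.

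Retnla outside cluster 25 stood out in the cDC2-like cluster 12 of WT. There it had 4 UMIs in 3 of 135 Mgl2DTR cells (2.94 CPM) and 838 UMIs in 32 of 503 WT cells (169.8 CPM), a ratio of 0.0173 (0.00470 to 0.0444). After thinning to 2000 UMIs, 1.81% (0.831 to 3.41) of the WT cells of cluster 12 held a Retnla UMI, near the 1.65% of WT T cell-like cells. Only 6 then held at least 2, so cluster 12 stood out by its level and not by its share of cells. A single WT cell held 358 of the 838 UMIs, and without the highest cell of each genotype the ratio was 0.0153. It was 0.132 without cells that held markers of other types and 0.117 among cells with the surer hashtag calls, still called lower. In cluster 3 Retnla stood at 3.57 CPM in Mgl2DTR cells and 8.53 CPM in WT cells (ratio 0.418, 0.199 to 0.799), and without the highest cell of each genotype the ratio of 0.499 was not called. In the cDC2-like cluster 32, with 6 Mgl2DTR cells and 155 WT cells, the genotypes were not compared. Of its WT cells 7.10% held a Retnla UMI, or 3.25% after thinning to 2000 UMIs, and 2 then held at least 2. The WT cDC2-like cells together held 1001 Retnla UMIs. Outside these clusters Retnla lay at a low level in cells of every kind. After thinning to 2000 UMIs, which left out 1130 shallower Mgl2DTR cells and 1378 WT cells, 1.17% of Mgl2DTR cells and 1.36% of WT cells held a UMI of it (3.97% and 4.38% before thinning), against 2.67% and 1.65% of T cell-like cells, which are not known to make it and had median depths of 3530 and 3201 UMIs. The share of cells with 1 UMI is therefore read as background. Myeloid clusters here are all those not named for T, B, NK or innate lymphoid cells or stroma, unnamed ones included. At 2 or more UMIs after thinning, Retnla was carried by 2 Mgl2DTR cells and 33 WT cells of the myeloid clusters. Of these WT cells 66.7% lay in cluster 25, 18.2% in cluster 12 and 6.06% in cluster 32.

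Chil3 was highest outside the macrophage-like cells. Its top levels were in the neutrophil-like cluster 28, with 3136 CPM in 116 Mgl2DTR cells and 2569.5 CPM in 160 WT cells (ratio 1.22, 1.16 to 1.29), and in cluster 17, with 1694 CPM in 224 Mgl2DTR cells and 2508 CPM in 133 WT cells (ratio 0.676, 0.655 to 0.697). Neither was called, though the cluster 17 ratio was called lower without called doublets (0.627), with median scaling (0.664) and without cells that held markers of other types (0.538). Cluster 17 stayed unnamed, because markers of granulocyte-monocyte progenitors (Mpo, Elane and Prtn3) and of neutrophils (Camp, Ngp and Lcn2) both led it. It made up 3.01% of Mgl2DTR cells and 1.15% of WT cells. Neutrophil-like cluster 9, led by Cxcl2, G0s2 and Il1b, made up 8.68% and 1.06% and held little Chil3, at 16 CPM in Mgl2DTR cells and 18 CPM in WT cells. In monocyte-like cluster 11, which made up 5.73% of Mgl2DTR cells and 1.89% of WT cells, Chil3 was called higher, at 594 CPM and 268 CPM (ratio 2.21, 1.96 to 2.51), read in 231 of 426 Mgl2DTR cells and 76 of 219 WT cells. Neutrophil markers summed to 17462 CPM in Mgl2DTR cells of cluster 11 and 1432 CPM in WT cells, and their part was not tested. In that cluster 12.5% of 6779 genes were called either way. Without cells that held markers of other types the ratio in cluster 11 was 1.90. In macrophage-like cluster 3 Chil3 stood at 31.5 CPM and 21.1 CPM and was not called, at a ratio of 1.49 (1.15 to 1.93). It was called higher, at 2.78, without the highest cell of each genotype, since a single WT cell held 85 of 158 UMIs.

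Ear2 was lower in Mgl2DTR cells in 8 clusters and higher in 3, and the 2 groups were of different kinds. In cDC2-like cluster 12, led by Mmp12, Plet1 and Cd209a besides Ear2 itself, it stood at 119 CPM in Mgl2DTR cells and 379 CPM in WT cells (ratio 0.314, 0.266 to 0.369), in a cluster where 6.28% of 7581 genes were called. It was read in 34 of 135 Mgl2DTR cells and 231 of 503 WT cells. In unnamed cluster 7, whose leading genes were those of dividing cells such as Top2a and Birc5, it stood at 8.44 CPM and 128 CPM (ratio 0.0661, 0.0490 to 0.0875). There 24.8% of 9309 genes were called, so the genotypes differed widely within that cluster. In macrophage-like cluster 3 the values were 24.97 CPM and 96.4 CPM (ratio 0.259, 0.202 to 0.328), where 7.79% of 9259 genes were called. A single WT cell held 186 of 723 UMIs there, and without the highest cell of each genotype the ratio was 0.321, and after thinning to 2000 UMIs it was 0.575, still called lower. In monocyte-like cluster 11 Ear2 stood at 148 CPM and 278 CPM (ratio 0.531, 0.460 to 0.612), opposite to Chil3 in the same cluster. In activated DC-like cluster 10 it stood at 4.27 CPM and 44.0 CPM, from 5 and 188 UMIs.

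The 3 clusters with more Ear2 in Mgl2DTR cells were the 3 cDC1-like ones (type 1 conventional dendritic cells). Ear2 stood at 19.6 CPM in Mgl2DTR cells and 7.04 CPM in WT cells of cluster 0 (ratio 2.79, 2.25 to 3.46), at 13.03 and 5.26 CPM in cluster 6 (ratio 2.48, 1.73 to 3.57) and at 11.2 and 4.27 CPM in cluster 14 (ratio 2.64, 1.53 to 4.60). In cluster 0, 3.08% of 10024 genes were called either way. In cluster 0, 13.9% of Mgl2DTR cells and 6.97% of WT cells held a UMI of Ear2, and after thinning 2.38% and 1.31% did. In T cell-like cells the thinned shares were 0.728% and 0.855%. The levels in cDC1-like cells were low beside those of cluster 12, and the difference between the cDC1-like and the other clusters was not tested.

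Mrc1 was highest in cluster 25 and next in macrophage-like cluster 3, where it stood at 96.3 CPM in Mgl2DTR cells and 102 CPM in WT cells (ratio 0.945, 0.824 to 1.08). Other lists moved in cluster 3, where 496 of all 9259 measured genes were higher and 225 lower (7.79% called either way). Of 15 classical activation genes measured in cluster 3, 9 were higher and 2 lower, with a median log2 ratio of 0.78 against 0.08 for all genes, and Il1b stood at 642 CPM in Mgl2DTR cells and 339 CPM in WT cells. Of 21 other alternative activation genes there, 4 were higher, among them Fn1 and Ccl24, and 8 lower, among them Mgl2 and Ccl17. The cDC2-like clusters gave Mrc1 opposite calls: in cluster 20 it stood at 22.5 CPM in Mgl2DTR cells and 80.9 CPM in WT cells (ratio 0.278, 0.169 to 0.432), and in cluster 12 at 44.0 CPM and 22.5 CPM (ratio 1.96, 1.41 to 2.70). Among cells with the surer hashtag calls the ratio in cluster 12 was 0.629, and with coarser clustering, where clusters 12 and 20 both fell to 1 cluster, it was 0.797. In cluster 7 Mrc1 stood at 2.55 CPM and 20.9 CPM (ratio 0.122), and in cluster 11 at 24.0 CPM and 46.5 CPM (ratio 0.516). In cluster 11 it was 0.872 and not called without cells that held markers of other types, and with coarser clustering, in which the clusters' borders move, it was 2.52. Without cluster 25 the Mrc1 ratio over all cells was 0.666 and called lower, so cluster 25 decided its direction.

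Whether the 5 genes shared cells was read in myeloid cells thinned to 2000 UMIs, 5338 of Mgl2DTR and 8068 of WT. These include the cells of unnamed clusters, 1005 of Mgl2DTR and 1386 of WT, and the products over all myeloid cells depend on that choice. The next shares are of all thinned cells, lymphoid ones included, 6303 of Mgl2DTR and 10208 of WT. Of these, 14.4% of Mgl2DTR and 10.2% of WT carried at least 1 of the genes. At least 2 were carried by 2.30% and 1.009%, and no cell carried 4 or 5. Arg1 and Mrc1 met in 55 Mgl2DTR cells, 56.1% of the cells with Arg1 and 35.9% of those with Mrc1. This was 19.6 times the number given by the product of the 2 shares over all myeloid cells, and 1.27 times when the product was taken inside each cluster. Retnla and Mrc1 met in 26 WT cells, 23.9% of the cells with Retnla and 11.02% of those with Mrc1, at 8.15 times the product over all myeloid cells and 1.27 times inside clusters. Without called doublets this pair no longer had both 10 shared cells and an excess of 1.5 times. Chil3 and Ear2 met in 53 Mgl2DTR cells and 33 WT cells, at 2.76 and 2.06 times over all myeloid cells and 1.02 and 1.04 times inside clusters. For these pairs most of the excess was no longer there inside clusters.

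**Figure D5:**
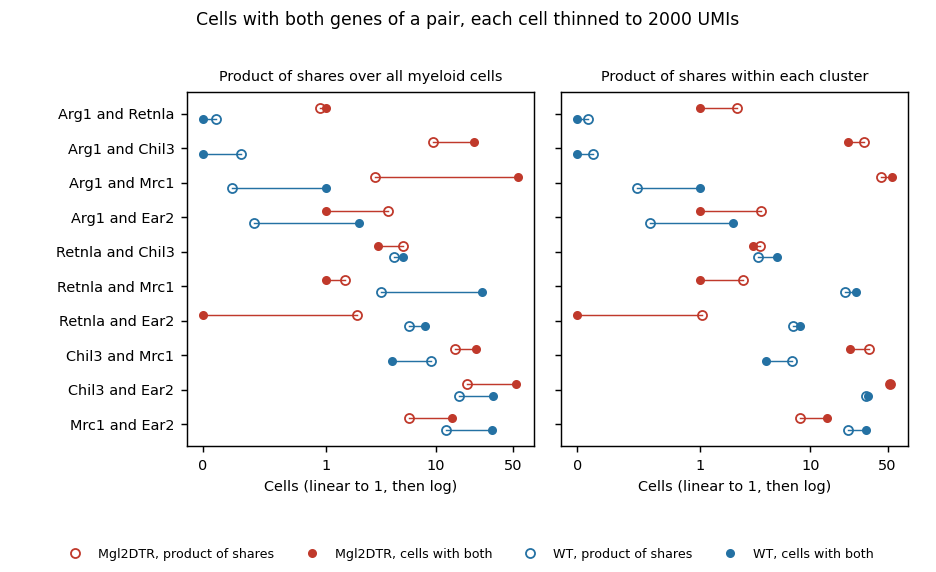
Cells that carried both genes of a pair (filled) and the number given by the product of the shares (open), after thinning to 2000 UMIs, with the product over all myeloid cells on the left and inside each cluster on the right (x axis linear to 1, then log). Arg1 and Mrc1 met in 55 Mgl2DTR cells, far from the open point on the left and near it on the right.

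Mrc1 and Ear2 met in 14 Mgl2DTR cells and 32 WT cells, at 2.45 and 2.62 times the product over all myeloid cells and 1.74 and 1.47 times inside clusters. In Mgl2DTR the excess inside clusters did not reach 1.5 times with 10 shared cells when thinning was left out, set to 4000 UMIs or combined with at least 2 UMIs, without cells that held markers of other types, or under both other clusterings. Arg1 and Retnla shared 1 Mgl2DTR cell and 0 WT cells. The products over all myeloid cells gave 0.955 and 0.108, so these counts are about what those shares give. Inside clusters the product in Mgl2DTR was 2.18, or 0.459 times. Arg1 and Ear2 shared 1 Mgl2DTR cell, where the products gave 3.65 over all myeloid cells and 3.57 inside clusters. In WT they shared 2 cells, against 0.414 and 0.595. Retnla and Ear2 shared 0 Mgl2DTR cells and 8 WT cells, where the products over all myeloid cells gave 1.94 and 5.65. Arg1 and Chil3 met in 22 Mgl2DTR cells, at 2.33 times the product over all myeloid cells and 0.727 times inside clusters, and Chil3 and Mrc1 in 23 Mgl2DTR cells, at 1.56 and 0.684 times. In WT cells Chil3 and Mrc1 met in 4, at 0.443 times. In cluster 25, 40 of 157 thinned Mgl2DTR cells carried Arg1 with Mrc1 and no other gene of the 5, 23 carried Arg1 alone, 20 Chil3 alone, 11 the trio of Arg1, Chil3 and Mrc1, and 21 none. Of 48 thinned WT cells there, 20 carried Mrc1 alone and 17 Retnla with Mrc1.

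The cells with at least 2 UMIs of a gene after thinning differed in the markers they held. Of 73 such Mgl2DTR cells for Arg1, 93.2% lay in cluster 25. They had 7596 CPM of monocyte markers and 2442 CPM of macrophage markers, against 4098 and 766 CPM in the other myeloid cells of Mgl2DTR. Neutrophil markers stood at 14698 CPM in them, against 32898 CPM. Other alternative activation genes, a list that shares Fn1 with the monocyte markers, stood at 4972 CPM, against 712 CPM. The 341 Mgl2DTR cells with Chil3 had 254620 CPM of neutrophil markers, against 11958 CPM in the rest, and 369 CPM of other alternative activation genes, against 787 CPM. The 175 WT cells with Chil3 had 343430 CPM of neutrophil markers, against 3350 CPM. The 33 WT cells with Retnla had 15094 CPM over 17 genes of resident macrophages, against 966 CPM, and the 79 WT cells with Mrc1 had 19853 CPM, against 896 CPM. The Mgl2DTR cells with Arg1 were also high on that list (6340 CPM, against 677 CPM), and those with Chil3 were low (471 CPM, against 754 CPM). Other alternative activation genes were high as well in the WT cells with Retnla (3518 CPM, against 1197.5 CPM), Mrc1 (2829 CPM, against 1194.5 CPM) and Ear2 (3423 CPM, against 1159 CPM). Of the 58 Mgl2DTR cells with Ear2 58.6% lay in cluster 11, and of the 180 WT cells 46.7% lay in cluster 12.

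Across the 37 clusters of at least 50 cells, with both genotypes summed, the genes most like each of the 5 were taken by Pearson's r of log2(CPM + 10), as a description with no test, since clusters share the pool. Nearest to Arg1 were the chemokines Ccl7 (0.94) and Ccl2 (0.84) and the platelet factor Pf4 (0.88). Nearest to Retnla were Pf4 (0.77), the clathrin gene Cltc (0.72) and Ccl8 (0.71), and nearest to Mrc1 were Rab3il1 (0.92), the endocytic adaptor Dab2 (0.91) and Cltc (0.86). Nearest to Chil3 were the glutathione transferase gene Mgst1 (0.90), Ifitm6 (0.88) and the neutrophil surface gene Cd177 (0.88). Nearest to Ear2 were Clec4b1 (0.88), Flt1 (0.84) and Ms4a6d (0.83). Among the 5 genes themselves, r was 0.76 for Arg1 and Mrc1, 0.71 for Arg1 and Retnla, 0.70 for Retnla and Mrc1, and 0.14 for Retnla and Chil3. The sums pool the genotypes, and in cluster 25 Arg1 came from Mgl2DTR cells and Retnla nearly all from WT cells, so r between those 2 genes does not describe shared cells.

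The relatives of the 5 genes had patterns of their own. Retnlg, a resistin-like gene of neutrophils, stood at 7937 CPM in Mgl2DTR cells and 13523 CPM in WT cells of cluster 28 and was higher in cluster 25 (139 UMIs and 1) and cluster 11 (91.2 and 19.2 CPM). Arg2, the mitochondrial arginase, had 282 of its 615 Mgl2DTR UMIs in neutrophil-like cluster 9 and 16 UMIs in cluster 25 of Mgl2DTR. Rnase6, another ribonuclease of the Ear2 family, stood at 224 CPM in Mgl2DTR cells and 216 CPM in WT cells over all cells. Mrc2, the other mannose receptor gene, had 30 and 28 UMIs. The receptor chain Il4ra stood at 35.3 CPM in Mgl2DTR cells and 22.2 CPM in WT cells, and Stat6 at 39.9 and 37.0 CPM.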

How the data were processed

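Single thymic cells of 1 pool were counted in 2 deposited tables, which also hold cells with pairs of hashtags. The deposited values are raw UMI counts per gene and cell, and the submitters' processing notes name Cell Ranger 6.0.0, Seurat 4.0.4 and the mm10 build for the authors' steps. Hashtag counts and the hashtag margin, a score per cell of how far its strongest hashtag stands above the next, were deposited by the authors in the cell annotation. The gene annotation is not stated. Genotype was taken per cell from the hashtag call, and no barcode occurred in both gene tables (0 shared). Cells with a pair of hashtags (9829) or none (78) stayed out of the comparisons.

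Cells were scaled to 10000 UMIs and clustered on 2000 variable genes, 30 components and 20 neighbours (Leiden, resolution 1, seed 1) into 42 clusters, without the 5 genes and related genes, using leidenalg 0.10.2, igraph 0.11.9, scikit-learn 1.9.0 and scipy 1.17.1 in Python 3.11.15, with pandas 2.3.3, numpy 2.4.6 and matplotlib 3.10.9 for tables and plots. A cluster took a name from at least 3 markers at a ratio of at least 2 and in 20% of its cells. A doublet was called where 25 or more of 50 neighbours carried a pair of hashtags, and such cells were kept unless stated; an alternative chosen after seeing the data left third-hashtag cells out of that call. UMIs were summed per genotype and cluster, a comparison needed 50 summed UMIs and 50 cells of each genotype, and a count of 0 was set to 3 for a bound on a ratio. With 1 sample per genotype no test across samples was made. Intervals are exact at 95% and cover counting error only. Intervals and calls were checked on simulated counts with counting error only. That check does not cover UMIs that lie in a few cells, as they did for several genes here. Alternatives changed the scaling, cell weights, depth, doublets, hashtag certainty, clustering and thresholds.

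The 5 genes and the gene lists were chosen with earlier results of these data known. Genes were named as follows: the 5, measured genes among their copies, at most 5 genes of every other list by UMIs and those called in a cluster whose list count is given, and the 3 genes nearest in profile to each, among genes with at least 1000 UMIs. Some items are not reported here.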

Additional observations from a re-analysis of the deposited data

Results flagged for a closer look

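Arg1 went opposite ways in 2 clusters: its ratio of Mgl2DTR over WT was 270.47 in cluster 25, a lower bound, and 0.25598 in macrophage-like cluster 3. The cluster 3 ratio rests on 6 UMIs in 4 Mgl2DTR cells and 57 UMIs in 11 WT cells. Mrc1 did so within the cDC2-like cells, with 1.9584 in cluster 12 and 0.27778 in cluster 20. Ear2 stood at a ratio of 2.7859 in cDC1-like cluster 0 and 0.31387 in cDC2-like cluster 12. These differences between clusters were not tested.

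Cells with a pair of hashtags, of which 1 is the third, enter no comparison of the report and carried the genes as well. Where the other hashtag was that of Mgl2DTR (2762 cells), Arg1 stood at 12.397 CPM and Retnla at 50.923 CPM. Where it was that of WT (2312 cells), Arg1 stood at 1.867 CPM and Retnla at 47.079 CPM. In cluster 25 these cells had 1305 CPM of Retnla beside the Mgl2DTR hashtag and 1699 CPM beside the WT hashtag. The third hashtag is named IL4RaKO in the hashtag count tables and uncategorized in the cell annotation, so which genotype it marks is not settled and these cells were compared with none.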

How the results depend on the processing

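The all-cell calls of Arg1, Retnla, Chil3 and Ear2 kept their direction and call under every alternative run. Mrc1 over all cells (ratio 1.46, not called) was called higher without called doublets (2.0259), with the surer hashtag calls (1.7145) and without cluster 17 (1.5482), and lower without cluster 25 (0.66553). With doublets called without third-hashtag cells, an alternative added later, all 5 all-cell calls were as reported. The 7 higher and 15 lower calls per cluster became 1 and 5 with cells thinned to 2000 UMIs, 3 and 7 with the surer hashtag calls, and 4 and 7 at 200 UMIs. There were 11 higher calls at 20 UMIs and 8 lower calls without cells holding other types' markers. Fewer cells or UMIs enter most of these. Mrc1 turned to 2.5168 in cluster 11 at resolution 0.5, and in cluster 12 to 0.7971 at that resolution and 0.62905 with the surer hashtag calls; the cause was not tested. Of 328 values of single genes in clusters under alternatives, 299 held, 10 gained a call, 16 lost one and 3 turned. The settings of 20 and 200 UMIs leave the counts of a measured gene unchanged, so their values held by construction. Combinations no longer measured under an alternative are not among the 328.

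Pairs with at least 10 shared cells and an excess of the size used for calls over all myeloid cells numbered 5 in Mgl2DTR and 3 in WT, and 2 and 1 at 2 UMIs. Inside clusters there was 1 in Mgl2DTR, Mrc1 with Ear2, and 0 without thinning, at 4000 UMIs, at 2 UMIs, without cells holding other types' markers and under both other clusterings. In WT there were 0, and 1 (the same pair) without called doublets. Without called doublets the shares of UMIs moved to 94.989% (Arg1, cluster 25), 69.538% (Mrc1, cluster 25) and 37.113% (Ear2, cluster 11) in Mgl2DTR, and in WT to 45.312% (Arg1, cluster 3), 11.225% (Retnla, cluster 25), 66.257% (Chil3, cluster 17), 43.482% (Mrc1, cluster 3) and 42.847% (Ear2, cluster 12). No paired analysis was possible because each genotype is 1 sample. Depth limits genes read at 1 UMI per cell, such as Retnla outside clusters 25, 12 and 32.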
